A study of Mus musculus with 11 samples.

Results

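The hippocampus of mice sampled 6 h after intranasal insulin was compared with that of saline controls. All gene rows of the deposited expression table were used, in the columns of the 3 libraries labelled 6 h insulin and the 3 labelled saline, 6 of the 11 libraries of the series. The 5 libraries taken 15 min (2) and 1 h (3) after insulin entered the shared estimate of the spread and are quoted beside the 6 h values. Total RNA was sequenced from both ends after stranded library preparation. All animals were male C3-C57B1/6J mice of 2-3 months, housed singly, and were under isoflurane when the brain was taken. Insulin was given at 2.4 IU per nare. The titles name the controls as saline-treated, whereas the treatment field of the same samples says untreated and the time field 0 min, so insulin and the 6 h that had passed since time 0 cannot be told apart. Sample numbers in the column names ran 1 to 3 for saline and 4 to 6 for 6 h. What they number is not stated, and their order cannot be told apart from the groups. The 15 min and 1 h libraries had later numbers, so the same holds for 6 h against 1 h. Whether every library came from an animal of its own is not stated, so a p-value here covers only how these libraries vary, which may be technical.

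Insulin binds a receptor tyrosine kinase that signals through insulin receptor substrates, phosphoinositide 3-kinase and AKT, and AKT keeps FOXO transcription factors out of the nucleus. In the brain the receptor is found on neurons, glia and the vessel wall, and the choroid plexus, which makes cerebrospinal fluid, carries it at high density. Genes of the immediate early class are transcribed within minutes of a stimulus and their short-lived messages then decay, whereas handling and anaesthesia also act on the brain through adrenal glucocorticoids and their receptor.

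A value is the authors' log2 signal per gene, quantile-normalized between libraries, with every library spanning -13.64 to 16.00. From 32703 to 33653 of 46202 rows had a value in the 6 h and saline libraries. The depth of the libraries is unknown. Dentate granule and pyramidal cell markers were present in all 6 libraries, Prox1 between 0.54 and 1.10 and Bok between 1.54 and 2.00. Regional neuron markers varied between libraries of the same group: Neurod6, a gene of hippocampal pyramidal and neocortical neurons, read -0.60, -2.07 and 2.55 in the saline libraries. Rn18s-rs5, a row for 18S ribosomal RNA, read 16.00, 13.05 and 13.79 with saline and 12.19, 11.65 and 11.04 at 6 h, and its 16.00 in saline replicate 1 is the shared maximum of the scale.

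No gene passed the test at 6 h. Of 27707 genes tested, 0 (0%) had an adjusted p under 0.05 in either direction by limma with Benjamini-Hochberg adjustment, and the smallest adjusted p was 0.174. At an unadjusted p under 0.05, 762 genes (2.75%) were higher and 1172 (4.23%) lower at 6 h. All 3 libraries at 6 h lay above all 3 saline libraries for 1143 genes (4.13%) and below them for 2327 genes (8.4%). The median log2 difference over all genes tested was -0.04. The same fit gave 36 genes higher and 207 lower than saline at 1 h, and 12 higher and 54 lower at 15 min; these comparisons share the saline libraries with the 6 h one. Genes named below as higher or lower at 6 h than with saline are therefore descriptions of these 6 libraries, and none of them passed the threshold.

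Among genes with higher signal at 6 h, Cers1 had the smallest p. Cers1 encodes a ceramide synthase of neurons and shares its locus with Gdf1, so reads of the pair may not be separable. It lies on chromosome 8 at 70315775 to 70331588 of GRCm38.p6. Its log2 signal was -1.10, -0.93 and -0.79 in the saline libraries and -0.12, 0.59 and 0.14 at 6 h, so the groups did not overlap. The difference was 1.14 (SE 0.20, 95% interval 0.70 to 1.59), or 2.21-fold, with an adjusted p of 0.254 by limma. At 1 h it stood at 1.13 above saline and at 15 min at 0.79, and the test of 6 h against 1 h gave a log2 difference of 0.02.

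Of the 12 genes with the smallest p in the upward direction and no overlap, 5 belong to a list of 25 glucocorticoid-responsive and stress genes. Sgk1, a kinase gene induced by glucocorticoids and by insulin, read -0.74, -0.71 and -0.04 with saline and 0.28, 0.32 and 0.17 at 6 h. Hif3a, a hypoxia-inducible factor subunit, read -2.76, -2.75 and -2.38 with saline and -1.98, -1.12 and -1.81 at 6 h, a 1.99-fold difference. Cdkn1a, which encodes an inhibitor of cyclin-dependent kinases, read -1.67, -1.91 and -1.80 with saline and -0.91, -0.33 and -1.11 at 6 h, a 2.01-fold difference. In Sgk1, Hif3a and Cdkn1a, 6 h replicate 2 was the highest of the 6 libraries, and in Sgk1 saline replicate 3 was nearest the 6 h group. Among the other named higher genes, 6 h replicate 2 was also highest in Ddit4, Fkbp5, Cers1, Ccdc86, Sesn2, Syngr3 and Slc7a5. It was not highest in Cmtm3 or Cyp2g1. Ddit4, an inhibitor of mTORC1, was 1.53-fold higher and Fkbp5, a co-chaperone of the glucocorticoid receptor, 1.59-fold higher, with adjusted p of 0.467 and 0.504 by limma.

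Sesn2, a leucine sensor that restrains mTORC1, read -1.69, -1.97 and -2.02 with saline and -1.18, -1.09 and -1.51 at 6 h. Slc7a5, a transporter of large neutral amino acids, read -0.78, -1.02 and -1.17 with saline and -0.51, -0.02 and -0.49 at 6 h. Neither group overlapped the other in these genes, and the differences were 0.64 and 0.65. Ccdc86, a nucleolar protein gene, Cmtm3, a membrane protein gene, and Syngr3, a synaptic vesicle gene, differed by 0.50, 0.46 and 0.29. Cyp2g1, a cytochrome P450 of the olfactory mucosa, had the widest difference, 3.46 (SE 0.71), from -10.13, -7.63 and -7.38 to -4.27, -5.54 and -4.96. Its values lie near the bottom of the scale, and the offset of 0.25 on the linear scale left a difference of 0.17.

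**Figure D1:**
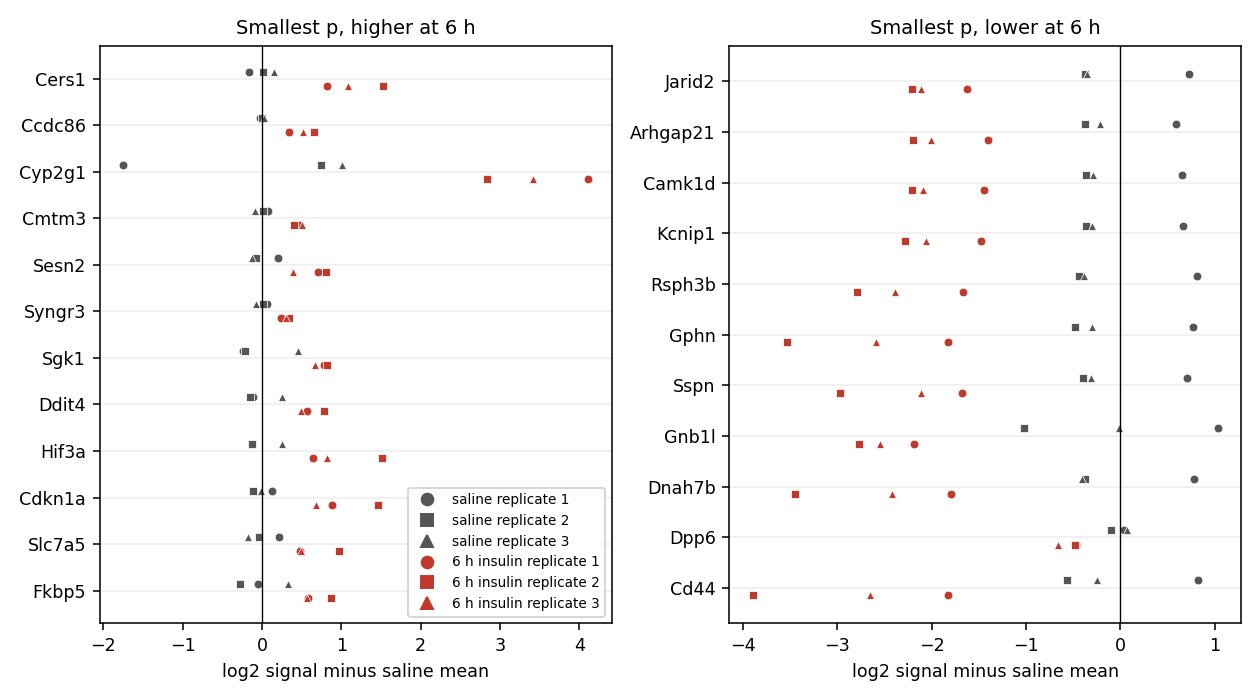
Log2 signal minus the saline mean (x axis) for the genes of smallest p whose groups did not overlap, 12 higher and 11 of the lower ones (y axis), with 1 point per library, grey for saline and red for 6 h insulin. No gene passed the adjusted threshold; on the right, saline replicate 1 lies above the other saline libraries in 10 of 11 genes.

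The whole list of 25 glucocorticoid and stress genes was chosen with earlier results of these data known. Of its genes, 10 had every 6 h library above every saline library and 0 the reverse, beside 4.13% and 8.4% of all genes. These 10 include the members named above, which were picked for small p and no overlap. The median log2 difference was 0.27, against -0.04 for all genes; relative to all genes it was 0.31, and 0.19 with the offset of 0.25. Of the 25 genes, 0 passed the adjusted threshold at 6 h. Against the same saline libraries the median of the list was larger at 15 min (0.55) and 1 h (0.57). The mean of the list relative to saline was 0.41, 0.33 and 0.32 in the 6 h libraries and -0.06, -0.11 and 0.17 in the saline libraries, so no saline library reached the 6 h range. The number without overlap cannot fall when a library is left out. It was 10 without saline replicate 1 and 11 without 6 h replicate 1, when 9.24% and 12.9% of all genes met that criterion. Without saline replicate 3 it was 16, the most, when 7.20% did.

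Within that list the members differed. Arrdc2, an arrestin-domain gene, read 1.08, 1.02 and 1.83 with saline and 2.16, 2.12 and 1.98 at 6 h. Plin4, a lipid droplet coat gene, read 2.00, 1.36 and 2.22 with saline and 2.64, 2.44 and 2.93 at 6 h. Mt2, a metallothionein, read 4.61, 4.69 and 4.62 with saline and 5.06, 4.87 and 5.01 at 6 h. These 3 genes had no overlap between groups. For Mt2 the values relative to saline were -0.44 at 15 min and -0.39 at 1 h, opposite in sign to 0.34 at 6 h. Klf15 and Klf9, transcription factor genes, were higher by 0.27 and 0.19 without overlap. Zbtb16, another receptor target, stood 1.84 and 1.72 above saline at 15 min and 1 h and 0.70 at 6 h, where saline replicate 3 overlapped the 6 h libraries. Classical responders Tsc22d3 (0.12), Dusp1 (0.14) and Errfi1 (0.00) were near saline, and Lcn2 differed by -0.80 with a standard error of 0.91. Per1, both a clock gene and a receptor target, read 0.40, 1.57 and 0.55 at 6 h against 0.16, 0.27 and 0.49, with 1 high library.

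**Figure D2:**
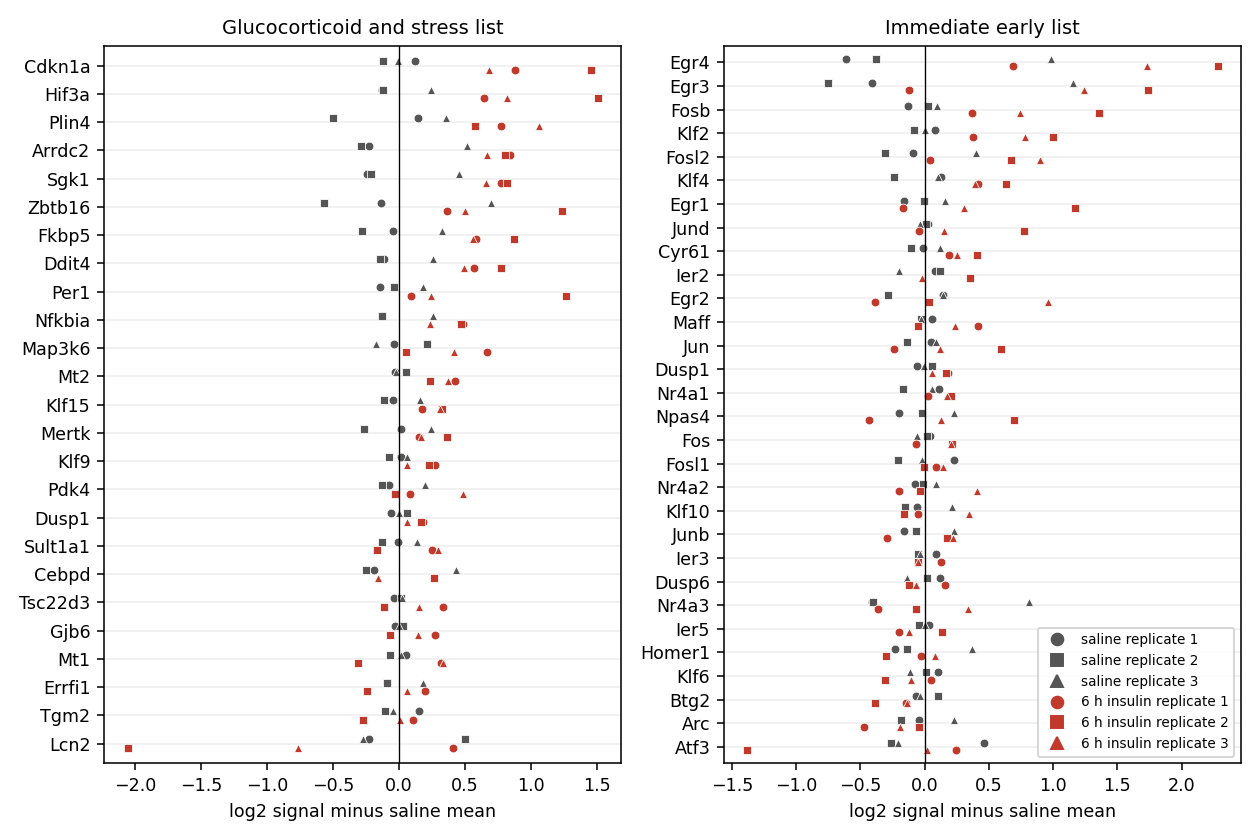
Log2 signal minus the saline mean (x axis) for the 25 glucocorticoid and stress genes and the 30 immediate early genes tested (y axis), 1 point per library. In the first list 10 genes have all red points to the right of all grey ones, and in the second 4 do.

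Immediate early genes were tested between times as well as against saline, and here 2 of them passed. Fos, a subunit of the AP-1 transcription factor, lies on chromosome 12 at 85473890 to 85477274. It read 2.46, 2.47 and 2.02 at 1 h and 0.90, 1.18 and 1.17 at 6 h, beside 1.00, 0.98 and 0.90 with saline. The 6 h libraries were all below the 1 h libraries and overlapped saline. Klf4, a Krüppel-like transcription factor gene on chromosome 4 at 55527137 to 55532475, read -0.21, 0.02 and -0.32 at 1 h and -1.69, -1.48 and -1.72 at 6 h. With saline Klf4 read -1.98, -2.35 and -2.00, so that the 6 h libraries lay between the other 2 groups and overlapped neither. From 1 h to 6 h, Fos fell by 1.24 (SE 0.12) and Klf4 fell by 1.46 (SE 0.13) on the log2 scale, both with an adjusted p of 0.0145 by limma.

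These were 2 of the 3 genes (0.0108% of 27701) that differed between 6 h and 1 h at an adjusted p under 0.05. The other one, Gm36849, is a predicted gene and was chosen after its values were seen. It read -5.63, -5.52 and -5.54 at 1 h and -3.58, -3.36 and -3.36 at 6 h, beside -3.09, -3.19 and -2.51 with saline, and rose by 2.13 (SE 0.21, adjusted p 0.0145 by limma) from 1 h to 6 h. The call on Fos and Klf4 depended on single libraries. Without saline replicate 1, without 6 h replicate 1 or 3, or without 1 h replicate 1 or 2, neither passed, with adjusted p by limma from 0.0526 to 0.113. Without saline replicate 2, or without 6 h replicate 2, Klf4 passed and Fos did not. With any 1 library left out, the log2 difference ran from -1.39 to -1.15 for Fos and from -1.54 to -1.37 for Klf4.

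Klf2 and Pdk4 had a like course that did not pass. Klf2, a Krüppel-like factor of endothelium and other cells, read 0.59, 0.49 and 0.18 at 1 h and -0.99, -0.37 and -0.59 at 6 h, beside -1.29, -1.45 and -1.36 with saline. Its 6 h minus 1 h difference was -1.07 (adjusted p 0.136 by limma), and its 6 h libraries were all above saline, by 0.72. Pdk4, a kinase that inhibits pyruvate dehydrogenase and a FOXO, PPAR and glucocorticoid receptor target, read -0.32, -0.17 and -0.04 at 1 h and -1.28, -1.40 and -0.88 at 6 h. Saline libraries gave -1.44, -1.49 and -1.16, so 6 h and saline overlapped. The Pdk4 difference from 1 h was -1.005 (adjusted p 0.128 by limma) and became -1.11 (adjusted p 0.0395 by limma) when libraries were centred at the median.

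**Figure D3:**
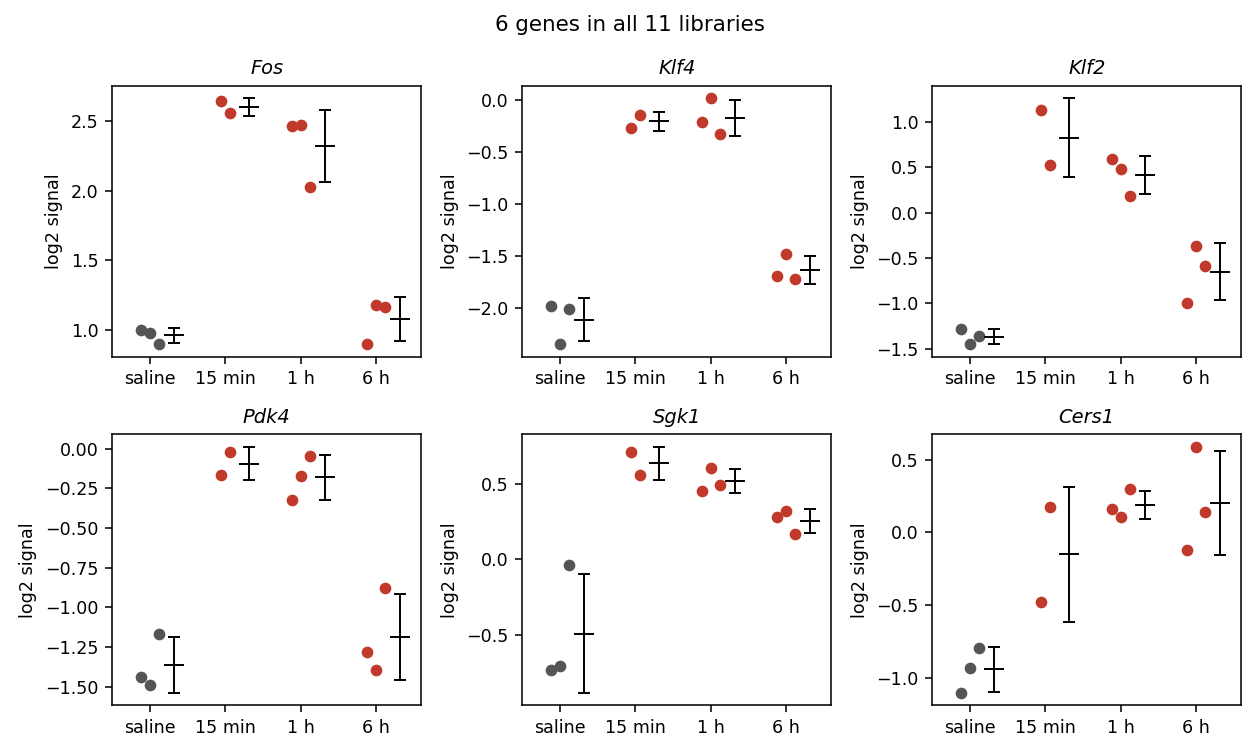
Log2 signal (y axis) of Fos, Klf4, Klf2, Pdk4, Sgk1 and Cers1 in all 11 libraries by group (x axis), with the mean and SD of each group as a bar. Fos and Pdk4 overlap saline at 6 h and Klf2, 0.72 above saline, does not, nor does Klf4, whereas the 6 h libraries of Cers1 lie in the range of the 15 min and 1 h libraries or beyond it.

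Over the 30 immediate early genes, 4 had every 6 h library above saline (Klf2, Klf4, Fosb and Cyr61) and 1 the reverse (Btg2), beside 4.13% and 8.4% of all genes. The median was 0.13, beside 0.74 at 15 min and 0.50 at 1 h. Fosb, a Fos paralogue, read -3.41, -3.26 and -3.18 with saline and -2.91, -1.92 and -2.54 at 6 h. Egr1 (0.44) and Egr4 (1.57), zinc finger factors, overlapped saline, and Arc, a synaptic plasticity gene, read 1.96, 2.38 and 2.24 against 2.39, 2.24 and 2.66. The count without overlap cannot fall when a library is left out. It was 5 without saline replicate 1 and 5 without 6 h replicate 2, when 9.24% and 10.5% of all genes met the criterion. It was 12 without 6 h replicate 1 and 8 without saline replicate 3, when 12.9% and 7.20% did.

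Lower at 6 h were 12 genes led by Jarid2, Arhgap21, Camk1d and Kcnip1, none past the threshold. Jarid2, a partner of Polycomb repressive complex 2, lies on chromosome 13 at 44730774 to 44921643. It read 4.59, 3.48 and 3.51 with saline and 2.23, 1.65 and 1.75 at 6 h, a difference of -1.98 (SE 0.27, adjusted p 0.174 by limma). Camk1d, a calmodulin-dependent kinase gene, read 2.99, 1.97 and 2.04 with saline and 0.88, 0.12 and 0.24 at 6 h. Saline replicate 1 was about 1 log2 unit above the other saline libraries in both genes. Gphn, the scaffold of inhibitory synapses, read 5.32, 4.06 and 4.25 with saline and 2.71, 1.00 and 1.95 at 6 h. These libraries kept that order in Gphn, with saline replicate 1 highest and 6 h replicate 2 lowest. Arhgap21, a gene of a GTPase-activating protein, and Kcnip1, a potassium channel partner, differed by -1.87 and -1.94. The same genes stood lower still at 15 min (Jarid2 -2.89) and 1 h (Jarid2 -3.04) against the same saline libraries.

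These genes varied together with the 18S row. Across the 11 libraries, the deviations of 11 of these 12 genes from their group means correlated with those of Rn18s-rs5 at r above 0.5, compared with 1 of the 12 named higher genes and 4.80% of 25771 genes with a value in every library. The points are libraries of the same fit, and the correlation is a description. Within groups the 18S row varied most with saline, with an SD of 1.54, against 0.58 at 15 min, 0.18 at 1 h and 0.58 at 6 h. Saline replicate 1, at 16.00 against 13.05 and 13.79, therefore weighs heavily in each r. The r was 0.87 for Jarid2, 0.90 for Camk1d and 0.71 for Gphn, and 0.49 for Dpp6, a potassium channel subunit whose difference was the smallest of the group at -0.54. The part of ribosomal RNA in these differences was not tested. Of all genes with r above 0.5, 9.37% had every 6 h library below saline, beside 8.4% of all genes tested, and their median difference was 0.00.

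Because no list held a gene past the threshold against saline, promoters are shown for the 4 named genes of smallest p with an entry. They are RefSeq sequences of build GRCm38.p6, from 250 bases before to 50 after the first listed start, written 5′ to 3′ on the strand of the gene: Jarid2, chr13:44730524-44730823, plus strand; Arhgap21, chr2:20967672-20967971, minus strand; Camk1d, chr2:5714713-5715012, minus strand; and Kcnip1, chr11:33993144-33993443, minus strand. Capitals mark a match to 1 of 8 motifs on either strand.
Jarid2: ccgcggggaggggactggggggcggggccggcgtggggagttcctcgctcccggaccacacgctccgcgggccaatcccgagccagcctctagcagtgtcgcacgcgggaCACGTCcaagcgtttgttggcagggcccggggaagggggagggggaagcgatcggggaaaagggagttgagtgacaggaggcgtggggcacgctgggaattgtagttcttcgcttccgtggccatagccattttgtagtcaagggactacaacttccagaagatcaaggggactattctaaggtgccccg
Arhgap21: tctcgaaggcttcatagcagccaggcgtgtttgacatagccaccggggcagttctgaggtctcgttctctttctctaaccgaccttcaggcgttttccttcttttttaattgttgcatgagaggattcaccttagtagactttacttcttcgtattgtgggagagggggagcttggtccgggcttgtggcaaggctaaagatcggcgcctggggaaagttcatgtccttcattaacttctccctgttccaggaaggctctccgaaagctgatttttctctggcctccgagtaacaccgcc
Camk1d: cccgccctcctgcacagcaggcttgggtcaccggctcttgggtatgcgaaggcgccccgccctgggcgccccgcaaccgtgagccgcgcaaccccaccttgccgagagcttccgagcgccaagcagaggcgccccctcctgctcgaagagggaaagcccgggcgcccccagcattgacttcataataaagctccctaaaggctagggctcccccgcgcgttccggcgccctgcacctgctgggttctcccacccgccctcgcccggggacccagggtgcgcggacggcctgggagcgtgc
Kcnip1: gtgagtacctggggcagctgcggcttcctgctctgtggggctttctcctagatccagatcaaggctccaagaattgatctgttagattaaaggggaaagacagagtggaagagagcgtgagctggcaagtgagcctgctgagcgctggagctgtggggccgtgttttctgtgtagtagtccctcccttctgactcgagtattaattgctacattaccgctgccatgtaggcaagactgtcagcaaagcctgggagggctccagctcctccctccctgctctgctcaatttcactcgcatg

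For the stress genes, the 3 list members of smallest p with an entry are shown, a choice made after their values were seen. They are Sgk1, chr10:21881934-21882233, plus strand; Ddit4, chr10:59951721-59952020, minus strand; and Hif3a, chr7:17062378-17062677, minus strand.
Sgk1: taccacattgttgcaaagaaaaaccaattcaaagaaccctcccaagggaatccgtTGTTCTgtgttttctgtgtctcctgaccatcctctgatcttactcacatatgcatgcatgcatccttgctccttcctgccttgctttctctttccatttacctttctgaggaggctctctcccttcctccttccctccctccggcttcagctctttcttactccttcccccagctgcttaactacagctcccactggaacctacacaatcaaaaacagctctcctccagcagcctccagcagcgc
Ddit4: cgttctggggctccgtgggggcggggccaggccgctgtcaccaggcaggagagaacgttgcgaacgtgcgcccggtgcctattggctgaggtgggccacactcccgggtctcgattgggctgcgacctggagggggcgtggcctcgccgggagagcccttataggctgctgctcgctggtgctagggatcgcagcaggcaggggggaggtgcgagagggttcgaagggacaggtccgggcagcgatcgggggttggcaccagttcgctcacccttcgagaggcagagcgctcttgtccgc
Hif3a: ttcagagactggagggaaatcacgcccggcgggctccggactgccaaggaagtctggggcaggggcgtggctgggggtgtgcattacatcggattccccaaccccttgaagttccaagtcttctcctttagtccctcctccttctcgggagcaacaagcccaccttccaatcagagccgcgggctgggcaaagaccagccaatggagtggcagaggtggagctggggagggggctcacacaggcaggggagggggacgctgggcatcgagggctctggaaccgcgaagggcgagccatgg

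The motifs searched on both strands were the E-box CACGTG, the D-box forms written as TTATGTAA and also as TTACGTAA, the cAMP response element TGACGTCA, the AP-1 site TGACTCA, the forkhead site GTAAACA, the steroid receptor site AGAACA and the hypoxia response form GACGTG. The E-box and the hypoxia form overlap in their last 5 letters. In the Jarid2 promoter the capitals are GACGTG read on the other strand, present in 7.77% of 15790 promoters of genes tested. In the Sgk1 promoter they are AGAACA on the other strand, which 14.9% of those promoters hold. Of the 22 glucocorticoid list genes with a promoter entry, 2 held AGAACA. Sgk1 has 6 starts listed, Kcnip1 3, and Jarid2 and Camk1d 2 each, of which 1 per gene is shown.

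Choroid plexus markers made up the list with the lowest median at 6 h. Of 12 tested, 9 had every 6 h library below every saline library and 0 the reverse, beside 8.4% and 4.13% of all genes. The median log2 difference was -1.67, and 0 passed the adjusted threshold. Ttr, the transthyretin carrier gene that is the plexus's most characteristic transcript, read 5.85, 5.22 and 5.50 with saline and 2.31, -0.73 and 4.44 at 6 h. Folr1, a folate receptor, read -1.16, -1.40 and -1.44 with saline and -4.13, -5.88 and -2.26 at 6 h. Cldn2, a tight junction gene, read -1.17, -1.42 and -1.40 with saline and -3.97, -4.79 and -2.09 at 6 h. In all 3 genes 6 h replicate 2 was lowest and 6 h replicate 3 nearest saline, and the adjusted p was 0.702 to 0.714 by limma. Without 6 h replicate 2 the Ttr difference went from -3.52 to -2.15. The list's median relative to that of all genes was -1.63, became -0.79 with the offset of 0.25, and lay between -2.22 and -1.13 with any 1 library left out. The plexus markers also spread at the other times, Ttr reading 6.98 and 4.71 at 15 min and 1.17, 4.29 and 6.39 at 1 h. Kl, Aqp1 and Clic6 followed with differences of -1.74, -2.15 and -1.31, and Prlr (-0.27) overlapped. Kcnj13, the remaining marker, was under the filter on low values, between -9.61 and -8.42 with saline, and had no value in 6 h replicate 3. The summed linear signal of the list was 44.6 to 66.9 with saline and 3.09 to 27.2 at 6 h. In bulk tissue, fewer cells of a type and less RNA per cell cannot be told apart, and the labels do not give how much plexus each sample held.

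Ependymal cilia genes leaned the same way. Of 14 tested, 7 had every 6 h library below saline and 0 above, beside 8.4% and 4.13% of all genes, with a median of -0.52 and a summed linear signal of 6.83 to 10.7 with saline and 2.77 to 4.17 at 6 h. The median relative to that of all genes was -0.48, and -0.098 with the offset of 0.25. Foxj1, the master factor of motile cilia, read 1.13, 1.22 and 1.16 with saline and 0.62, 0.79 and 0.94 at 6 h. Ccdc153 read -1.34, -0.78 and -1.27 with saline and -1.59, -3.23 and -1.50 at 6 h. Dnah7b, an axonemal dynein, read 2.82, 1.66 and 1.62 with saline and 0.23, -1.42 and -0.39 at 6 h. Its difference was -2.56, and it is 1 of the genes that varied with the 18S row. It was also the largest single part of the summed linear signal in each saline library. The count of cilia genes without overlap cannot fall when a library is left out. Without 6 h replicate 1 it stayed at 7, when 13.7% of all genes were without overlap. Without 6 h replicate 3 all 14 were without overlap, when 16.2% of all genes were. The haemoglobin rows Hba-a1, Hba-a2, Hbb-bs and Hbb-bt, near-identical copies whose reads may be shared, were lower by 0.44 to 0.53 with no overlap, 4 of the 9 blood markers tested.

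The counts without overlap for markers of other cell types stand beside 4.13% of all genes above saline and 8.4% below. Counts above and below saline were 1 and 1 of 10 for neurons, 0 and 0 of 10 for oligodendrocytes, 0 and 2 of 11 for microglia (among them the complement gene C1qc), 0 and 0 of 12 for endothelium, 0 and 2 of 9 for pericytes and smooth muscle, and 0 and 1 of 9 for meninges. Vtn, the vitronectin gene of pericytes, read 3.30, 3.27 and 3.37 with saline and 3.08, 2.77 and 2.93 at 6 h. C1ql2, a dentate granule cell gene, read 2.20, 2.05 and 2.32 with saline and 1.55, 1.92 and 1.39 at 6 h, the only one of 8 dentate markers without overlap.

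**Figure D4:**
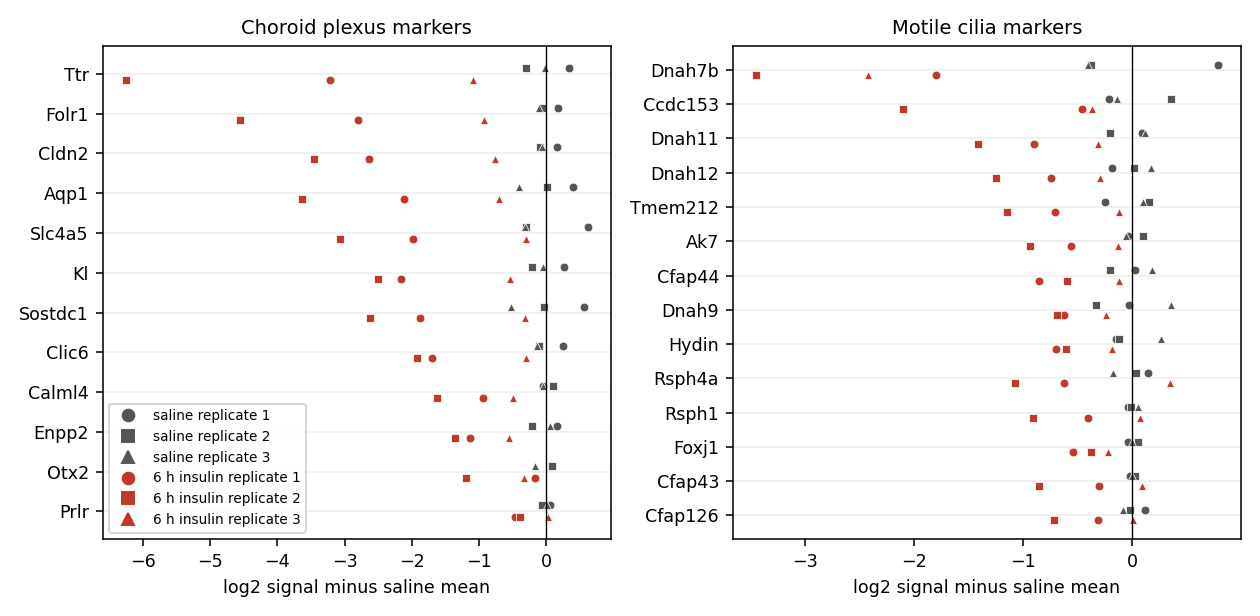
Log2 signal minus the saline mean (x axis) for 12 choroid plexus and 14 motile cilia markers (y axis), 1 point per library. Red 6 h points spread widely to the left, with replicate 2 mostly lowest and replicate 3 nearest to the grey saline points; 9 and 7 markers have no overlap.

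No insulin pathway or fuel gene passed the test at 6 h. Of 36 insulin and PI3K pathway genes, 2 lay above saline without overlap and 5 below, beside 4.13% and 8.4% of all genes, with a median of 0.01. Insr, the receptor, read -0.70, -0.82 and -0.58 with saline and -0.90, -0.45 and -0.75 at 6 h, a difference near 0 with a 95% interval of -0.31 to 0.30. Irs2, a receptor substrate gene repressed by insulin in liver, read 1.23, 1.17 and 1.09 with saline and 1.04, 1.86 and 1.20 at 6 h. Igfbp2, a growth factor binding protein also made by the choroid plexus, read -0.48, -0.25 and -0.51 with saline and -0.998, -1.51 and -0.91 at 6 h. Grb14, an adaptor that inhibits the receptor, was lower by 0.28 without overlap. Among 26 FOXO targets, 2 were above and 1 below saline without overlap, the former being Trib1, a pseudokinase gene (0.55), and Klf15.

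Fatty acid oxidation genes showed 1 above and 3 below saline without overlap, of 29, beside 4.13% and 8.4% of all genes, with a median of -0.09. Cpt1a, the enzyme that admits fatty acids to mitochondria, read -1.45, -1.61 and -1.45 with saline and -1.66, -1.77 and -1.39 at 6 h, a difference of -0.10 with a 95% interval of -0.40 to 0.19. Intervals for Cpt2 (-0.43 to 0.14), Acadvl (-0.29 to 0.11) and Hadha (-0.32 to 0.06) likewise held 0. Hadha was 1 of the 3 genes below saline without overlap. Acads, the short-chain dehydrogenase, read -2.03, -2.18 and -2.11 with saline and -1.81, -1.78 and -1.70 at 6 h without overlap. Fasn, fatty acid synthase, read 3.30, 3.15 and 3.22 with saline and 3.14, 3.95 and 3.37 at 6 h, with 1 high library. Slc2a1, the glucose transporter of vessel and glia, differed by 0.26 (95% interval -0.06 to 0.58). Angptl4, a lipoprotein lipase inhibitor, differed by 0.08.

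The counts of other lipid and energy lists stand beside 4.13% of all genes above saline without overlap and 8.4% below. Counts above and below saline were 0 and 3 of 23 for fatty acid synthesis, 2 and 2 of 30 for cholesterol, and 1 and 1 of 23 for triglyceride and lipid droplet genes. Cers1 was the only one of 31 sphingolipid genes above saline without overlap, with 5 below, among them Sgms1, a sphingomyelin synthase (-0.35), and Sphk1, a sphingosine kinase (-0.42). For glycolysis the counts were 1 and 3 of 21, for pyruvate dehydrogenase and the TCA cycle 1 and 7 of 33, and for nuclear oxidative phosphorylation 2 and 11 of 72. Of 13 ketone body and lactate genes, Aacs, an acetoacetate-activating enzyme, was above and 5 were below, namely Acat1, Slc16a1, Slc16a7, Ldhb and Bsg. Mpc1, a subunit of the mitochondrial pyruvate carrier, read 2.46, 2.47 and 2.47 with saline and 2.45, 1.90 and 2.22 at 6 h. Ucp2, a mitochondrial carrier and PPAR target, read -0.60, -0.53 and -0.75 with saline and -0.25, 0.55 and -0.07 at 6 h. Ppargc1a, the coactivator of mitochondrial biogenesis, read 0.11, 0.00 and 0.41 with saline and -0.28, -0.29 and -0.47 at 6 h. None of these passed the threshold.

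Mitochondrially encoded genes of the respiratory chain had a positive median, and nuclear ones a median near that of all genes. Of 13 mitochondrially encoded genes, 4 had every 6 h library above saline (ND4L, COX2, ND2 and CYTB) and 0 the reverse, beside 4.13% and 8.4% of all genes. Their median was 0.27, against -0.07 for the 72 nuclear genes and -0.04 for all genes. COX2 read 12.25, 11.68 and 11.78 with saline and 12.50, 12.48 and 12.69 at 6 h. ND4L, which overlaps ND4 on the mitochondrial genome, read 6.10, 6.11 and 6.25 with saline and 7.10, 7.22 and 6.43 at 6 h. The count cannot fall when a library is left out, and was 4 without saline replicate 3, when 7.20% of all genes met the criterion. It was 7 without 6 h replicate 2, when 10.5% did, and the median relative to all genes went from 0.31 to 0.18. Among 21 cytosolic heat shock genes 0 were without overlap in either direction, and among 68 ribosomal protein genes 4 were above and 6 below.

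Synaptic and clock genes gave mixed values. In the excitatory synapse list, 2 of 38 lay above saline without overlap and 6 below, beside 4.13% and 8.4% of all genes. Shank3, a postsynaptic scaffold, read 0.82, 0.79 and 0.75 with saline and 0.92, 2.16 and 1.15 at 6 h, and Dlg4 differed in the same libraries, by 0.38. Below saline were Grin2a and Grm7, glutamate receptor genes, at -0.47 and -0.32. In the clock list 1 of 19 was above (Ciart, a repressor, 0.92) and 4 were below, beside the same shares. Rora, a nuclear receptor that activates the clock and is also a thalamic marker, read 0.91, 0.80 and 0.84 with saline and 0.67, 0.43 and 0.26 at 6 h. Dbp, a clock output gene, differed by 0.15. Of 15 astrocyte markers, Glul was above and S100b below saline without overlap, and Gfap read 2.55, 3.04 and 3.36 at 6 h against 2.17, 2.62 and 3.38. Striatal markers had a median of 0.51, with Penk at 0.98, 2.48 and 2.74 at 6 h and 1.16, 0.92 and 1.95 with saline, so that libraries within either group differed by more than the group means.

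Long genes had a lower median at 6 h than short ones. Among 520 protein-coding genes of over 300 kb genomic span, 233 (44.8%) had every 6 h library below every saline library and 0 had every one above, beside 8.4% and 4.13% of all genes tested. The median difference was -0.25 for these genes, -0.12 for 1709 genes of 100 to 300 kb, -0.03 for 6547 genes of 20 to 100 kb, 0.01 for 5304 genes of 5 to 20 kb and 0.00 for 2055 genes of under 5 kb. Relative to the saline mean, the over 300 kb class stood at 0.00, -0.16 and 0.16 in the saline libraries and at -0.28, -0.29 and -0.22 at 6 h, so saline replicate 2 was close to the 6 h range. The median was -0.25 without genes that varied with the 18S row, -0.22 after centring at the median, and between -0.34 and -0.17 when any 1 library was left out. Without saline replicate 2 the count was 355, when 16.4% of all genes met the criterion. Against the same saline libraries the median of the genes over 300 kb was -0.16 at 15 min and -0.27 at 1 h. For all genes it was -0.14 and -0.11, and for genes of under 5 kb -0.14 and -0.07. Of the genes named above, Camk1d, Kcnip1, Gphn, Dnah7b, Dpp6, Rora, Ppargc1a, Grm7 and Grin2a belong to this class.

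**Figure D5:**
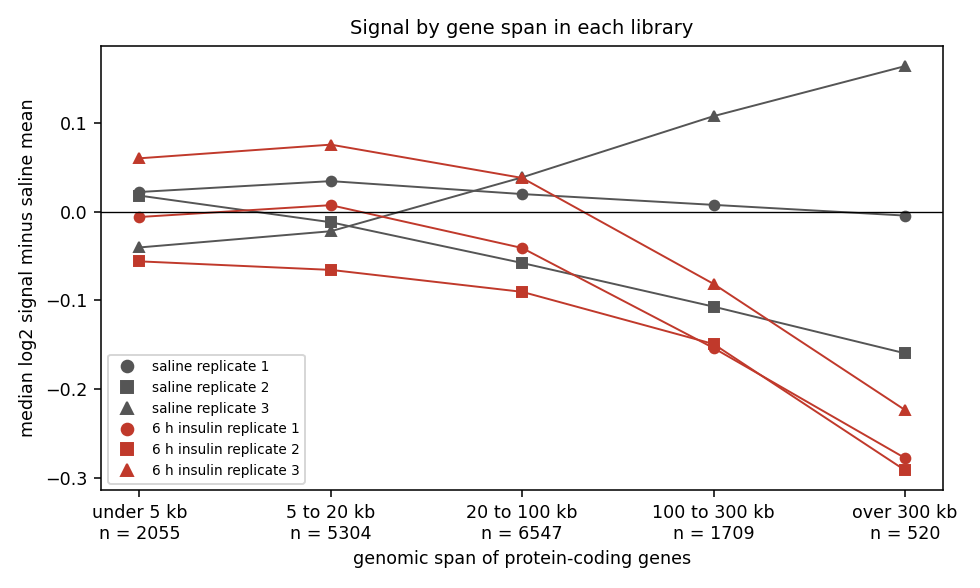
Median log2 signal minus the saline mean (y axis) of protein-coding genes in 5 classes of genomic span (x axis, number of genes under each), 1 line per library. In the over 300 kb class the 6 h libraries lie between -0.29 and -0.22 and the saline libraries between -0.16 and 0.16.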

How the data were processed

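RNA of the hippocampus was sequenced in 11 libraries. Per the submitters' processing notes, bcl2fastq, Partek 6.7 and the build GRCm38 were used, without their roles; the aligner and counter were not given in the sources used here. The deposited score of each gene is a log2 signal, quantile-normalized by the authors as the values themselves show, with missing values marked. Base 2 was inferred: among 2424 scarcely detected genes the lowest value fell by 0.93 per doubling of gene span, where log2 of reads per length gives -1. The authors thus appear to have scaled by whole gene span. Depth cannot be recovered from these values, so no counting interval is given.

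From these values, genes in the lowest 40% by mean were left out (27721 kept, 1950 with missing values, which were not imputed). A 4-group linear model was fitted to all 11 libraries in R 4.3.3 with limma 3.58.1, with a mean-variance trend; tests were two-sided and Benjamini-Hochberg adjusted at 0.05. Intervals are 95% from the same fit. The script was tested on simulated data. Libraries were placed in groups by their labels.

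The genes named were the 12 of smallest p in each direction with all 6 values and no overlap between groups (predicted genes passed over), the 3 members of smallest p of each of 43 lists, and a panel of 21; other list members named were chosen after their values were seen. Of the lower genes, 1 is not reported here. The members and lists were chosen with earlier results of these data known. The mitochondrial list was reduced to 1 spelling per gene after the table was seen. Coordinates and promoters are RefSeq, GRCm38.p6; 37292 of 46202 symbols matched. Alternatives were other filters, scalings, an offset, a fit of 6 libraries, no trend, complete rows only, no genes varying with the 18S row, the replicate block, and each library left out. Those for 6 h against 1 h, gene span and list counts were chosen after seeing the data.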

Additional observations from a re-analysis of the deposited data

Results flagged for a closer look

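Klf4 differed between times in its distance from saline: the test of 6 h against 1 h gave a log2 difference of -1.46, with all 6 h libraries under all 1 h libraries. Fos differed in the same test by -1.24. Gm36849, a predicted gene, differed by 2.13, with all 6 h libraries above all 1 h libraries.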

How the results depend on the processing

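The counts of genes higher and lower at 6 h than with saline were 0 under every alternative run, including each library left out. The count of 3 for 6 h against 1 h, whose alternatives were chosen after seeing the data, was 0 with the replicate block and ranged from 0 to 4 when 1 library was left out: 0 without saline replicate 1, 6 h replicate 1, 6 h replicate 3, 1 h replicate 1 or 1 h replicate 2, and 1 without 6 h replicate 2; the cause was not tested. With the replicate block the adjusted p of Fos and Klf4 was 0.0768 by limma. Same-numbered libraries deviated from their group means with r of -0.05 to 0.09, and 2 of 3 saline libraries matched best with their own number. With 3 libraries per group, these values cannot tell whether same-numbered libraries share more than a number. The sign of some differences near 0 from saline reversed. Insr was 0.021 with cyclic loess and 0.028 with median centring, and from -0.13 to 0.094 with 1 library left out. Over the libraries left out in turn, Angptl4 ran from -0.042 to 0.28, Irs2 from -0.042 to 0.37, Dbp from -0.020 to 0.23, Gfap from -0.014 to 0.59 and Dusp8 from -0.010 to 0.43. The median of all genes was -0.04 as deposited and -0.01 with cyclic loess or median centring. Depth is unknown and limits what can be said of low genes.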
